A study of Mus musculus with 44 samples.

Results

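The mitosis and spindle genes are 45 listed genes whose products drive entry into mitosis, build the spindle, attach it to the chromosomes and divide the cell. A listed gene was kept where a probe set of the array carried its symbol alone, and its brightest probe set on average stood for it. All 45 had one, out of 19938 genes measured in this way. They were followed in macrophages (MFs) sorted from mouse muscle injured by cardiotoxin, a venom toxin lethal to muscle fibres, on 44 arrays in 10 groups. The tibialis anterior muscle was injected, CD45+ leukocytes were selected on beads, and the cells were sorted on Ly6C, which inflammatory monocytes carry, and on F4/80, an adhesion receptor of MFs. KO MFs were C57B6/J, PPARg fl/fl, LysM Cre+, and WT MFs were C57B6/J. LysM Cre is driven from the lysozyme locus Lyz2 and is active in MFs and neutrophils, so the deletion is not limited to one MF subset. Rosiglitazone, a drug that activates PPARγ, was given to WT animals only and was profiled only at day 2. Labelled Ly6C+ F4/80low were KO MFs (4 arrays of day 1, 5 of day 2, 4 of day 4), rosiglitazone-treated WT MFs (3 arrays of day 2), and non-treated WT MFs (4 arrays of day 1, 6 of day 2, 4 of day 4). Labelled Ly6C- F4/80high were day 2 MFs of KO (n = 5), rosiglitazone-treated WT (n = 3) and non-treated WT (n = 6) muscle. The labels name the arrays biological replicates without tying them to animals or to batches, so p-values measure the spread between these arrays.

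A cell enters mitosis when cyclins A and B activate the kinase Cdk1, which is switched on by the phosphatase Cdc25c. Polo and Aurora kinases then mature the spindle poles, kinesin motors arrange microtubules, and the spindle checkpoint holds the anaphase-promoting complex in check until every kinetochore is attached. The genes are transcribed late in the cell cycle, under a repressor and activator system (DREAM, B-Myb and FoxM1) that acts through the cell cycle genes homology region (CHR), with the trimer NF-Y bound at CCAAT boxes nearby. In injured muscle, infiltrating monocytes are largely non-dividing when they arrive, while tissue MFs can proliferate in place.

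The promoters are shown because the genes moved together and share letters that the choice of members did not use. RefSeq gave a promoter, here 250 bases before to 50 bases after the start of the gene on build GRCm38.p6, to 37 of the 45 genes, and 3 of these (Ect2, Cep55 and Prc1) had 2, which makes 40 promoters. Ccna2, Pbk, Tpx2, Aurkb, Incenp, Kif20a, Cdc25c and Spc24 had no entry. The CHR letters TTTGAA stood on either strand of 31 of the 40 promoters (77.5%), against 17.9% of all 32851 promoters of the same length. The variant TTCGAA, which reads the same on both strands, was in 3 (7.5%, against 1.56%). CCAAT stood on either strand in 28 (70.0%, against 37.4%), and at least 2 copies in 19 (47.5%, against 11.7%). A CHR of either spelling together with CCAAT was in 25 (62.5%, against 7.52%). These are matches of letters, not bound sites. The 6 promoters below are those of Ccnb2 at chr9:70421505-70421804 (minus strand), Plk1 at chr7:122159185-122159484 (plus strand), Anln at chr9:22389157-22389456 (minus strand), Kif11 at chr19:37376132-37376431 (plus strand), Top2a at chr11:99024140-99024439 (minus strand) and Cenpa at chr5:30666636-30666935 (plus strand). The first 5 belong to genes with large differences and the sixth to the gene that ran against the rest. Each is printed 5′ to 3′ on the strand of its gene, and capitals mark CHR letters and CCAAT, or TTCAAA and ATTGG where they lie on the other strand.
Ccnb2: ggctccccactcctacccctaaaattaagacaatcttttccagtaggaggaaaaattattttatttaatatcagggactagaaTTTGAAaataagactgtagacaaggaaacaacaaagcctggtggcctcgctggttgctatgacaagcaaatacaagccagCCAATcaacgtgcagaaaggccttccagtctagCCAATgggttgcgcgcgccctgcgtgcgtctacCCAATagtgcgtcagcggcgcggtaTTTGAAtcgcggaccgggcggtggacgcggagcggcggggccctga
Plk1: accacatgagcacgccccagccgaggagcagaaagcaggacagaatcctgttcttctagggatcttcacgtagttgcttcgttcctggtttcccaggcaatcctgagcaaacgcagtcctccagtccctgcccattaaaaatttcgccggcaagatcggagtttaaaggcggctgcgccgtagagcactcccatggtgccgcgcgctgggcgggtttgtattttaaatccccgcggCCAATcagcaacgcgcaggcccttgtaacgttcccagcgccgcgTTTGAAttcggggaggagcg
Anln: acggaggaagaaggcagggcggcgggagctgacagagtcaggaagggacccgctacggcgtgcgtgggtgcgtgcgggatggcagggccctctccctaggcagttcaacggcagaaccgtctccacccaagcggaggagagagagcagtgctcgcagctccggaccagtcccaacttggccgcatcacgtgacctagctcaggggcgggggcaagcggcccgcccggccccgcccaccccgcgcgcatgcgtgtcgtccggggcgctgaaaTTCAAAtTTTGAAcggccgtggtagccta
Kif11: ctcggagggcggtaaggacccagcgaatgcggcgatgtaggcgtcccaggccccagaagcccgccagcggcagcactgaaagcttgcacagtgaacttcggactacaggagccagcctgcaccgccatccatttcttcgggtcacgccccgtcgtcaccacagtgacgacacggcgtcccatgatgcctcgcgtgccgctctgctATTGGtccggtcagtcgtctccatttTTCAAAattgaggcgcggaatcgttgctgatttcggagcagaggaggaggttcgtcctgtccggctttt
Top2a: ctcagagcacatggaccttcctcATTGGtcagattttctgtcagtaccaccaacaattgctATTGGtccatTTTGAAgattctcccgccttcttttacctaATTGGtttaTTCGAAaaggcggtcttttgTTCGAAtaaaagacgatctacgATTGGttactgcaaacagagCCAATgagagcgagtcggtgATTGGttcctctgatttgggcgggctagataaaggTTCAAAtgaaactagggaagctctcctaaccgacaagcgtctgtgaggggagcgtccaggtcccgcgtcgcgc
Cenpa: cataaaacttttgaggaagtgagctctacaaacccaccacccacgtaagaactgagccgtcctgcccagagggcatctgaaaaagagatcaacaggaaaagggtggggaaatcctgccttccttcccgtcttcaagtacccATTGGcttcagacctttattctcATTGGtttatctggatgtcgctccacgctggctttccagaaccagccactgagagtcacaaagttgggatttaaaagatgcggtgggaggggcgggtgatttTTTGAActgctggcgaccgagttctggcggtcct
Ccnb2 held 3 CCAAT copies and Top2a 6, and Anln held TTTGAA in both orientations without CCAAT. Cenpa, which ran against the rest at day 2, carried 1 TTTGAA and 2 CCAAT copies.

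The array values were checked against the labels before the members were read. All values are log2 array intensities, and levels are compared only within a gene. Macrophage markers were above the median of all values (6.86) for 10 of 10 genes measured in every group. Adgre1, which encodes F4/80, averaged 12.08 ± 0.08 in day 2 Ly6C- and 11.53 ± 0.11 in day 2 Ly6C+ WT MFs (SD, n = 6 each), and the probe set shared by Ly6c1 and Ly6c2 averaged 8.78 ± 0.12 in the Ly6C- and 11.91 ± 0.15 in the Ly6C+ arrays. The day 4 MFs, labelled Ly6C+ F4/80low, went against that label. Their shared Ly6c probe set averaged 9.83 ± 0.71 in KO and 9.88 ± 0.25 in WT MFs (SD, n = 4 each), well below day 2 Ly6C+ MFs. It was not as low as in Ly6C- MFs, at 9.58 to 10.09 in WT day 4 and 8.61 to 8.94 in WT day 2 Ly6C- arrays. In KO arrays these ranges, 9.21 to 10.78 and 8.87 to 9.55, overlapped. Adgre1 of the day 4 MFs averaged 12.27 ± 0.09 in KO and 12.27 ± 0.06 in WT MFs, above both day 2 subsets. These arrays are therefore called day 4 MFs here and were set against both day 2 subsets. Lyz2, the gene that carries Cre in the KO, averaged 9.72 ± 0.06 in KO and 12.95 ± 0.12 in WT MFs at day 1, but the non-treated WT day 2 arrays numbered 1 to 3 read 8.67 to 9.29 while those numbered 4 to 6 read 12.64 to 13.02. Both sets of 3 arrays carry the WT label, and comparisons that use them were repeated within each set. Pparg differed by 0.10, 0.08, 0.00 and 0.24 between KO and WT in the 4 conditions (adjusted p of 0.82 or more, limma), and no source used here gives the exons its probe set reads, so these values do not measure the deletion.

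The mitosis genes were lowest in MFs of day 1 and in Ly6C+ MFs of day 2, intermediate in Ly6C- MFs of day 2 and highest at day 4. The median over the 45 genes in single arrays was 5.91 to 5.94 in KO and 5.80 to 5.98 in WT MFs at day 1. In Ly6C+ MFs at day 2 it was 5.84 to 5.99 in KO, 5.69 to 5.94 in rosiglitazone-treated and 5.81 to 6.11 in non-treated WT arrays. In Ly6C- MFs at day 2 it was 6.25 to 6.52 in KO, 6.60 to 6.72 in rosiglitazone-treated and 6.27 to 6.78 in non-treated WT arrays. At day 4 it was 6.91 to 8.22 in KO and 7.62 to 7.96 in WT arrays. No day 2 Ly6C- array overlapped the Ly6C+ arrays, and no day 4 array overlapped those of day 2. In bulk RNA, more dividing cells and more of these transcripts per dividing cell cannot be told apart.

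**Figure D1:**
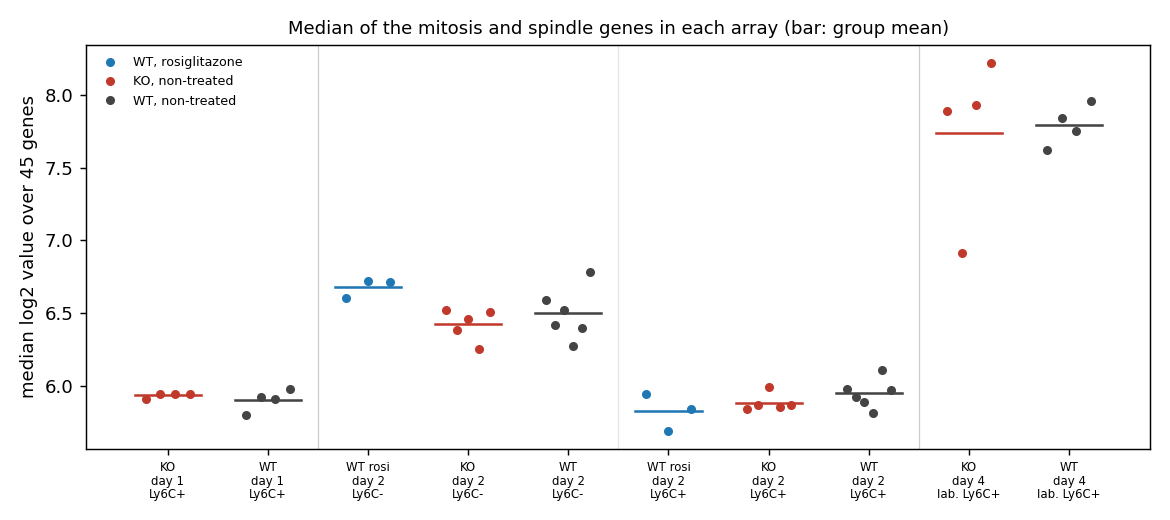
Median log2 value of the 45 mitosis and spindle genes in each of the 44 arrays (points, y axis) by sample group (x axis), with the group mean as a bar. Day 1 and day 2 Ly6C+ arrays lie between 5.69 and 6.11, day 2 Ly6C- arrays between 6.25 and 6.78 and day 4 arrays between 6.91 and 8.22.

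The array KO day 4 replicate 2 stood apart within its group. It had the lowest value of the 8 day 4 arrays for 45 of 45 mitosis genes, and lay a median of 0.97 log2 below the other KO day 4 arrays, whereas over all genes it differed from them by 0.01 and was below them for 23.2% of genes. It was still above the median WT day 2 Ly6C- array for 38 members and above every KO day 2 Ly6C+ array for 41. Its shared Ly6c probe set, at 10.78, was the highest of the KO day 4 arrays, of which the lowest read 9.21. Medians of the KO at day 4 relative to day 2 are given with and without it.

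The first comparison asked how far the mitosis genes separate the subsets present together in WT muscle at day 2. In Ly6C- relative to Ly6C+ MFs, 35 of 45 were higher, 1 was lower and 9 did not pass (limma over 19938 genes, Benjamini-Hochberg adjusted p below 0.05, two-sided, n = 6 each). The background was 22.2% of all genes higher and 23% lower, or 25.8% and 12.6% after array medians were set equal, which moved the median of all genes by 0.07. The median difference was 0.56, a 1.47-fold higher level, against -0.07 over all genes, and single genes ran from -0.82 to 1.89. In KO MFs 33 were higher and 1 lower (n = 5 each, median 0.60, 1.51-fold), against 19.8% and 18.6% of all genes (23.6% and 7.98% with array medians set equal, a shift of 0.08). In rosiglitazone-treated WT MFs 32 were higher and 1 lower (n = 3 each, median 0.66, 1.58-fold), against 14.6% and 8.68%. These 3 comparisons have no array in common but use the same fitted spread of each gene, and 30 genes were higher in each of them. The share of all genes higher in all 3 is not given, so the count of 30 has no background beside it. With the WT arrays numbered 1 to 3 alone 32 were higher and 1 lower (median 0.55), and with those numbered 4 to 6 24 were higher and 2 lower (median 0.49). The share of all genes passing is not given for these 2 settings, so these counts have no background beside them.

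The second comparison asked how the genes stood at day 4. In WT day 4 relative to WT day 2 Ly6C+ MFs, 44 of 45 were higher and none lower (n = 4 and 6, median 1.74, 3.33-fold, range -0.32 to 3.89), against 23.8% of all genes higher and 26% lower. With array medians set equal that split was 26.5% and 17%. Against the WT day 2 Ly6C+ arrays numbered 1 to 3 alone, 44 were higher and 1, Cenpa, lower. Against those numbered 4 to 6 alone, 44 were higher and none lower. In the KO 43 were higher (n = 4 and 5, median 1.62, 3.07-fold), with Spc24 (0.14) and Cenpa (-0.30) not passing, against 22.3% and 22.5% (24.6% and 14.9% with array medians set equal). Without KO day 4 replicate 2 the count was again 43, with a median of 1.87. With either set of non-treated WT day 2 arrays alone in the fit, 43 were higher in the KO and 1, Cenpa, was called lower. Relative to day 2 Ly6C- MFs, which crosses the labelled gates, all 45 were higher at day 4 in WT (median 1.06, 2.09-fold, range 0.28 to 2.46) and all 45 in KO (median 0.97, 1.95-fold). The background was 14.1% of genes higher and 15.2% lower in WT, and 13.1% and 11.8% in KO. Without KO day 4 replicate 2 the KO median was 1.23. Against the WT day 2 Ly6C- arrays numbered 1 to 3 alone, 41 were higher at WT day 4 and none lower (median 1.01, range 0.08 to 2.38). Against those numbered 4 to 6 alone, 45 were higher (median 1.11). The share of all genes passing is not given for the settings with arrays numbered 1 to 3 or 4 to 6. Both WT comparisons share the day 4 arrays, and the day 2 arrays of each are also those of the subset comparison, so the 3 sets of values are given side by side and are not independent of each other.

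**Figure D2:**
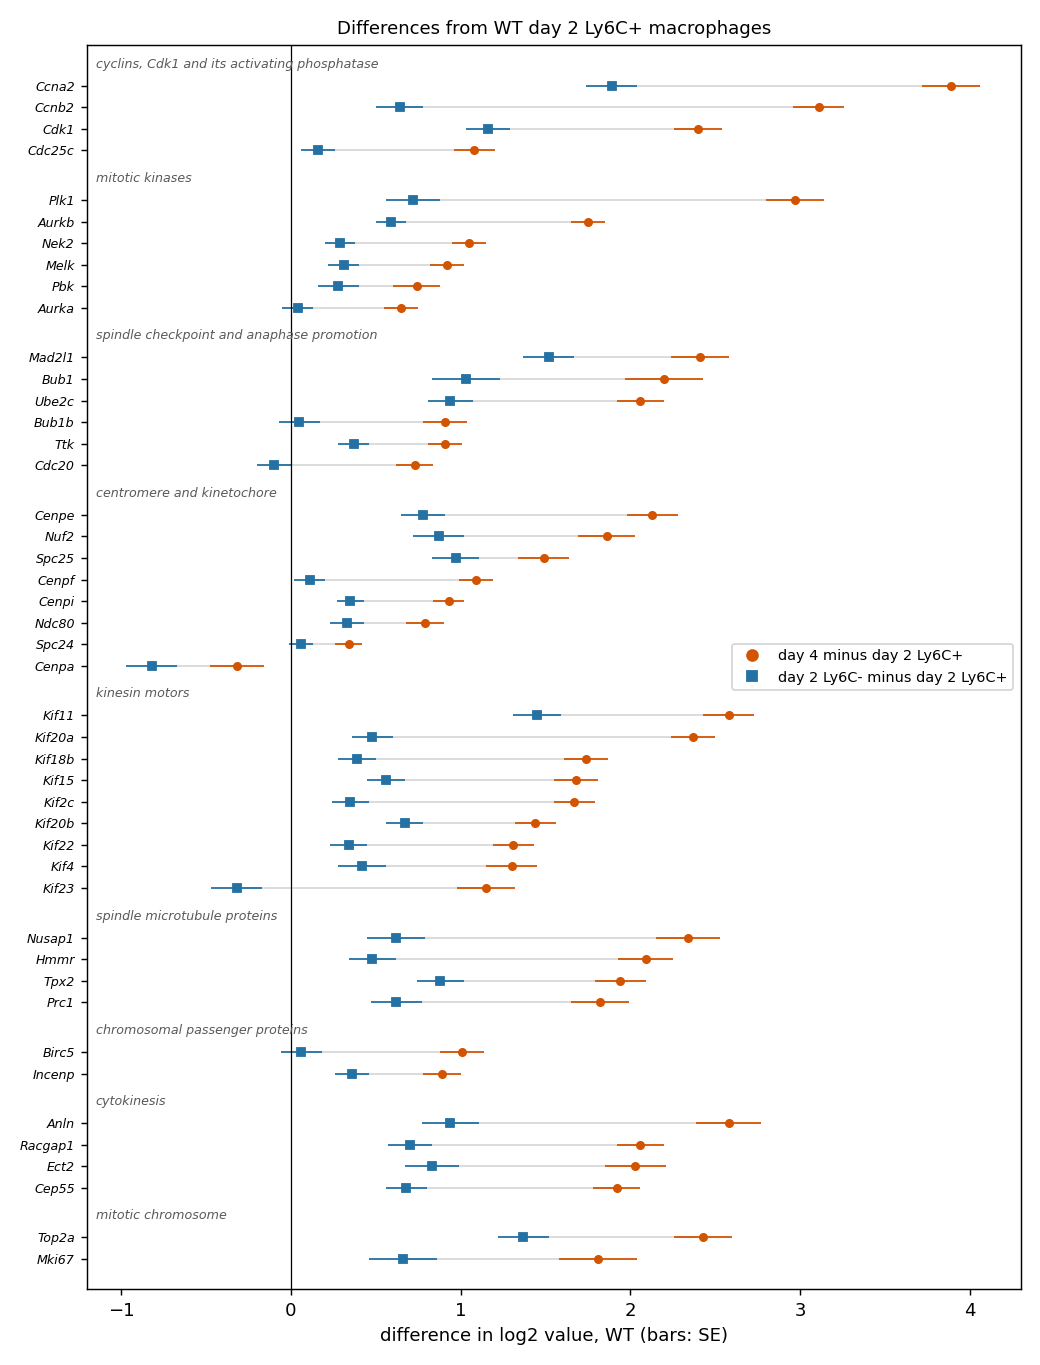
Log2 difference (x axis) of each of the 45 genes (y axis, ordered by role) for WT day 4 minus WT day 2 Ly6C+ MFs (orange circles) and WT day 2 Ly6C- minus Ly6C+ MFs (blue squares), with the SE of each fitted difference as a bar. The orange values run from -0.32 to 3.89 and the blue from -0.82 to 1.89, and Cenpa is the gene below 0 in both.

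Among the cyclins and their kinase, Ccna2 (cyclin A2, probe set 10497831), which acts from S phase into early mitosis, had the largest difference in the subset comparison. It read 9.73, 9.94, 10.01 and 10.15 in WT day 4 arrays, 7.52 to 8.28 (median 7.99) in WT day 2 Ly6C- arrays and 5.86 to 6.26 (median 6.09) in WT day 2 Ly6C+ arrays. No group overlapped another. The difference between the subsets was 1.89 (SE 0.15, adjusted p = 2.6e-13), and that between day 4 and Ly6C+ MFs 3.89 (SE 0.17, adjusted p = 7.8e-22). Ccnb2 (cyclin B2, probe set 10594774), which partners Cdk1 in mitosis, read 10.25, 10.31, 10.49 and 10.54 at day 4, 7.64 to 8.23 (median 7.98) in Ly6C- and 6.85 to 7.66 (median 7.30) in Ly6C+ MFs. Its subsets overlapped at their edges, and every day 4 array lay above both. Over Ly6C- MFs Ccnb2 had the largest day 4 difference of the 45, 2.46 (SE 0.15, adjusted p = 1.4e-16, 5.52-fold), and its difference between the subsets was 0.64. Cdk1 (probe set 10369815) read 9.34, 9.51, 9.35 and 9.46 at day 4, 7.87 to 8.59 (median 8.14) in Ly6C- and 6.69 to 7.22 (median 7.03) in Ly6C+ MFs. Its groups did not overlap, and it was 1.16 higher in Ly6C- than in Ly6C+ MFs (SE 0.13, adjusted p = 8.5e-10) and 1.23 higher at day 4 than in Ly6C- MFs (SE 0.14, adjusted p = 4.2e-09). Cdc25c, the phosphatase that activates Cdk1, differed by 0.16 between the subsets (adjusted p = 0.20) and was 0.91 higher at day 4 than in Ly6C- MFs (adjusted p = 3.9e-08).

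Of the 6 mitotic kinases, 4 were higher in Ly6C- than in Ly6C+ MFs (median of the 6, 0.30) and all 6 at day 4. Plk1 (probe set 10557156), the Polo kinase of mitotic entry, read 9.62, 9.58, 9.43 and 9.75 in WT day 4, 7.19 to 7.68 (median 7.28) in Ly6C- and 6.44 to 6.96 (median 6.54) in Ly6C+ arrays. The groups did not overlap. It differed by 0.72 (SE 0.16, adjusted p = 2.3e-04) between the subsets and by 2.25 (SE 0.17, adjusted p = 8.6e-14, 4.76-fold) between day 4 and Ly6C- MFs. Aurkb (probe set 10377405), the kinase of the chromosomal passenger complex, read 9.40, 9.31, 9.21 and 9.14 at day 4, 7.98 to 8.37 (median 8.06) in Ly6C- and 7.36 to 7.63 (median 7.54) in Ly6C+ MFs, again without overlap. Aurka, which acts at the spindle poles, overlapped between the subsets, with a difference of 0.04, and was 0.61 higher at day 4 than in Ly6C- MFs. Nek2, Melk and Pbk differed by 0.29, 0.31 and 0.28 between the subsets, Pbk with an adjusted p of 0.059. Birc5 (survivin) and Incenp, which hold Aurkb in the passenger complex, gave unlike values in the subsets. Incenp was 0.36 higher in Ly6C- MFs and Birc5 differed by 0.06 (adjusted p = 0.67). Birc5 read 7.14, 7.11, 7.09 and 7.03 at day 4, 5.91 to 6.37 (median 6.11) in Ly6C- and 5.74 to 6.29 (median 6.16) in Ly6C+ MFs, so the subsets overlapped and day 4 did not, with a day 4 difference of 0.94 over Ly6C- MFs.

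Of the 6 genes of the spindle checkpoint and anaphase promotion, 4 were higher in Ly6C- than in Ly6C+ MFs (median of the 6, 0.65). Mad2l1 (probe set 10538832), which encodes the checkpoint protein that binds Cdc20, read 9.49, 9.84, 9.61 and 9.85 in WT day 4 arrays, 8.60 to 9.22 (median 8.75) in Ly6C- and 6.98 to 8.06 (median 7.21) in Ly6C+ arrays. It was 1.52 higher in Ly6C- MFs (SE 0.15, adjusted p = 3.3e-11) without overlap. Bub1 and Ttk, kinases of the checkpoint, were 1.03 (SE 0.20) and 0.37 higher, and Ube2c, the ubiquitin-conjugating enzyme of the anaphase-promoting complex, was 0.94 higher. Cdc20 (probe set 10515744), the activator of that complex, read 6.68 to 7.06 (median 6.92) in Ly6C- and 6.78 to 7.33 (median 7.0) in Ly6C+ MFs. The subsets overlapped (difference -0.10, SE 0.10, adjusted p = 0.40). Bub1b, the BubR1 kinase, differed by 0.05. At day 4 all 6 were higher than in Ly6C- MFs, Cdc20 at 7.62, 7.68, 7.68 and 7.96 by 0.83 (SE 0.11, adjusted p = 7.0e-08) and Bub1b by 0.86.

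**Figure D3:**
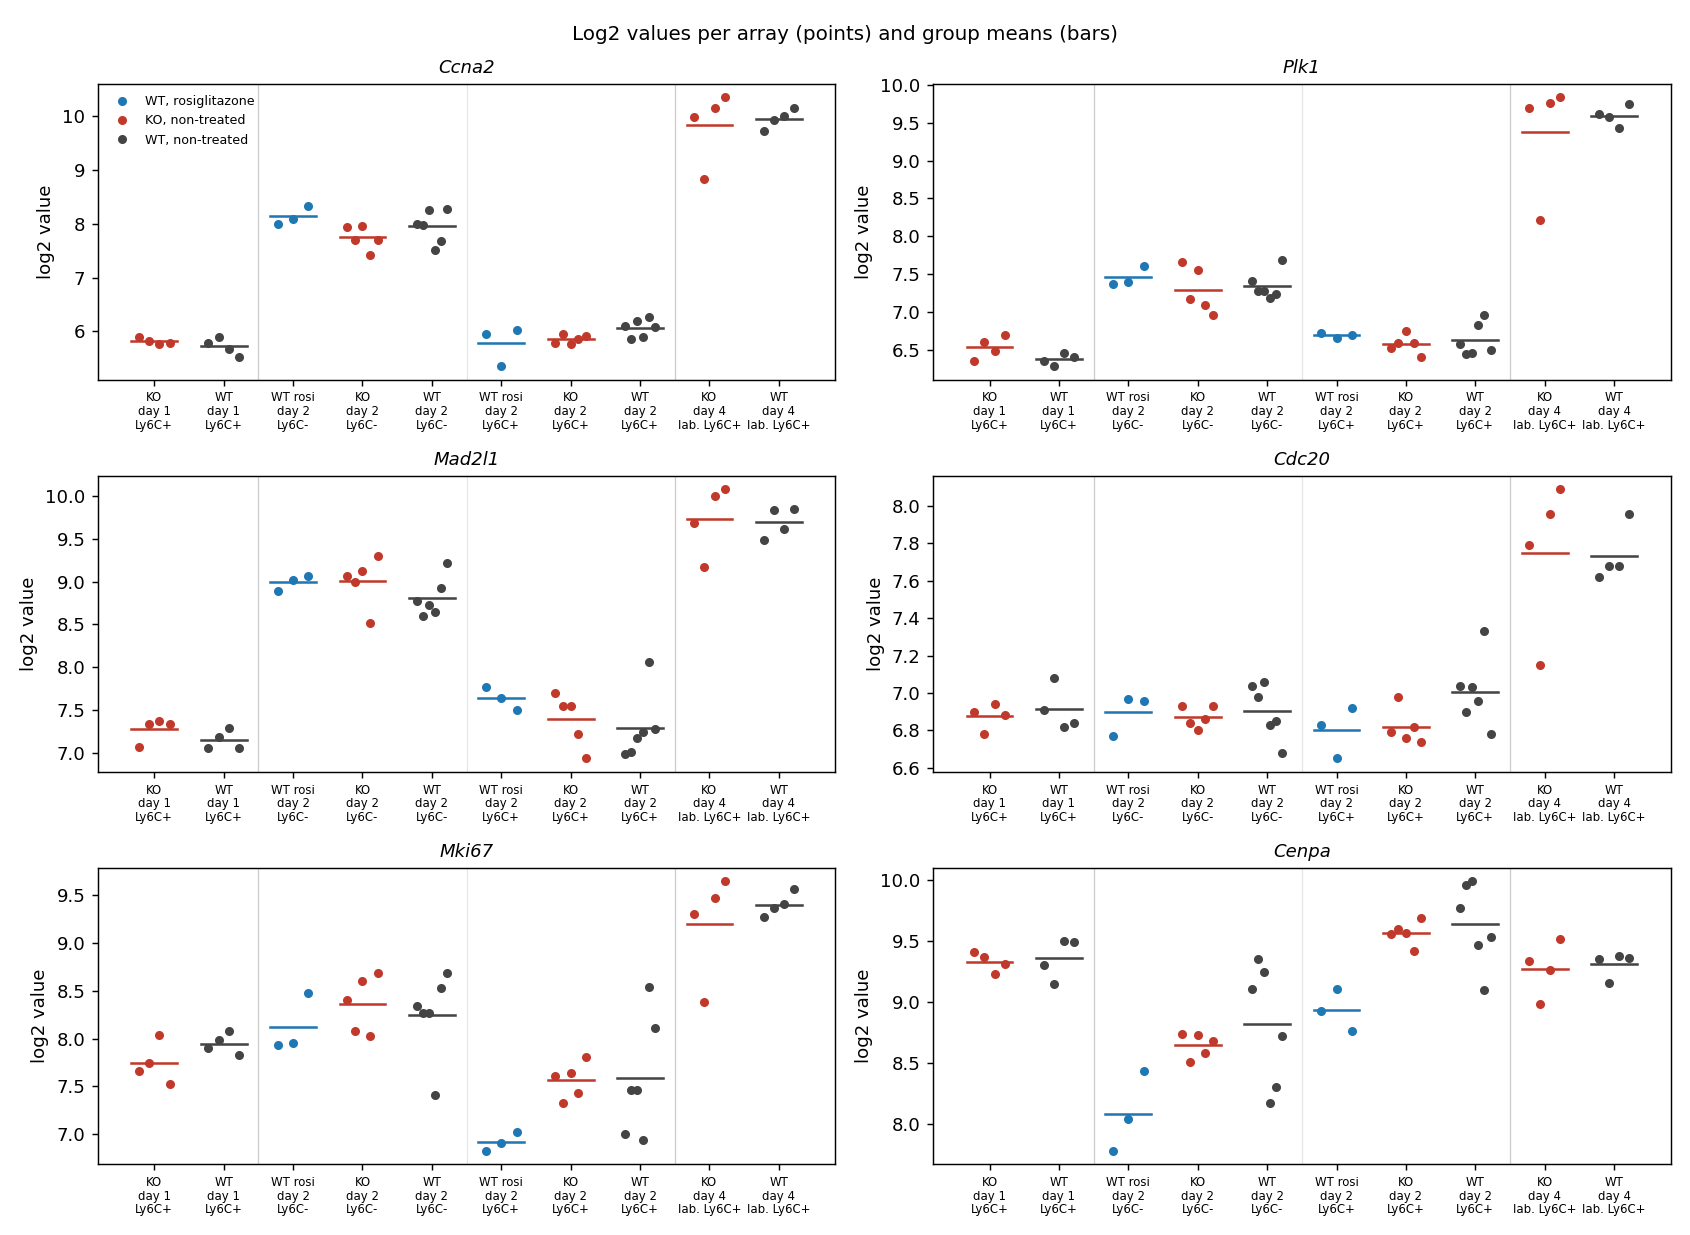
Log2 value (y axis) of Ccna2, Plk1, Mad2l1, Cdc20, Mki67 and Cenpa in each array (points) by sample group (x axis), with the group mean as a bar. Ccna2 steps up in Ly6C- MFs and again at day 4, Cdc20 reads 6.68 to 7.33 in both WT day 2 subsets and 7.62 to 7.96 in WT day 4 arrays, and Cenpa is lower in Ly6C- than in Ly6C+ MFs.

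The kinesins, motors that slide, cap or depolymerise microtubules, were higher in Ly6C- MFs for 8 of 9 (median 0.42) and at day 4 for all 9 (median 1.13 over Ly6C- MFs). Kif11 (Eg5, probe set 10462796), which pushes the spindle poles apart, read 7.98, 8.06, 8.13 and 8.28 at day 4, 6.65 to 7.30 (median 6.99) in Ly6C- and 5.39 to 5.92 (median 5.43) in Ly6C+ MFs. It was 1.45 higher in Ly6C- than in Ly6C+ MFs (SE 0.14, adjusted p = 1.5e-11) and 1.13 higher at day 4 than in Ly6C- MFs (SE 0.15, adjusted p = 1.1e-07). Kif20a, which works at the central spindle in late mitosis, had its larger difference at day 4. It read 8.17, 8.24, 8.20 and 8.39 in WT day 4 arrays, 6.24 to 6.66 (median 6.30) in Ly6C- and 5.80 to 6.01 (median 5.88) in Ly6C+ arrays. Its difference was 0.48 between the subsets and 1.89 (SE 0.13, adjusted p = 9.3e-15) between day 4 and Ly6C- MFs. Kif23 (MKLP1), the partner of Racgap1 at the central spindle, read 7.09 to 7.79 (median 7.40) in Ly6C- and 7.36 to 8.68 (median 7.52) in Ly6C+ MFs, a difference of -0.32 (adjusted p = 0.087). The highest Ly6C+ value, 8.68, was that of replicate 5, and day 4 arrays read 8.77 to 8.92, above all of both subsets. The remaining kinesins were 0.34 to 0.67 higher in Ly6C- than in Ly6C+ MFs and 0.77 to 1.34 higher at day 4 than in Ly6C- MFs, Kif20b the lowest and Kif18b the highest.

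The other spindle proteins and the cytokinesis genes moved without exception. Nusap1, Prc1, Tpx2 and Hmmr, which bundle or nucleate spindle microtubules, were all higher in Ly6C- MFs (0.48 to 0.88) and at day 4 over Ly6C- MFs (1.06 to 1.73). Anln (anillin), a scaffold of the contractile ring, read 7.93, 8.24, 8.03 and 8.25 at day 4, 6.08 to 6.91 (median 6.46) in Ly6C- and 5.16 to 6.19 (median 5.47) in Ly6C+ MFs. Its subsets overlapped only through Ly6C+ replicate 5, the highest Ly6C+ array, and the differences were 0.94 between the subsets and 1.63 at day 4 over Ly6C- MFs. Ect2, which activates RhoA at the division plane, Racgap1, its partner, and Cep55, which recruits the abscission machinery, were 0.68 to 0.83 higher in Ly6C- MFs and 1.19 to 1.36 higher at day 4. Top2a (probe set 10390707), the topoisomerase that untangles sister chromatids, read 8.39, 8.65, 8.39 and 8.63 at day 4, 6.81 to 7.89 (median 7.5) in Ly6C- and 5.80 to 6.29 (median 6.11) in Ly6C+ MFs. These groups did not overlap, with a difference of 1.37 between the subsets (SE 0.15, adjusted p = 6.0e-10) and of 1.06 between day 4 and Ly6C- MFs (SE 0.17, adjusted p = 2.0e-06). Its second probe set, 10390746, did not follow it, with 3.05 ± 0.35 at day 4 (SD, n = 4) and 3.45 ± 0.58 and 3.41 ± 0.37 in Ly6C- and Ly6C+ MFs (SD, n = 6 each). Mki67 (Ki-67, probe set 10568714), a protein of the mitotic chromosome surface used to mark cycling cells, had wide spread at day 2. It read 9.27, 9.36, 9.40 and 9.56 at day 4, 7.41 to 8.68 (median 8.31) in Ly6C- and 6.94 to 8.54 (median 7.46) in Ly6C+ arrays, and 1 of 6 Ly6C- arrays was above every Ly6C+ array. The difference of 0.66 between the subsets (SE 0.20, adjusted p = 0.0072) was lost when only those groups set the spread (adjusted p = 0.066) and with the arrays numbered 4 to 6 (0.34, adjusted p = 0.38). At day 4 Mki67 was 1.15 higher than in Ly6C- MFs (SE 0.23, adjusted p = 8.0e-05).

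The 8 genes of the centromere and kinetochore, the platform on which chromosomes meet microtubules, had the lowest median day 4 difference of the 9 roles (0.55 over Ly6C- MFs) and held the 1 gene that was lower in Ly6C- than in Ly6C+ MFs. Of the 4 subunits of the Ndc80 complex, which grips the microtubule, Spc25, Nuf2 and Ndc80 were higher in Ly6C- MFs by 0.97, 0.87 and 0.33, while Spc24 differed by 0.06. Spc24 was 0.28 higher at day 4 than in Ly6C- MFs in WT (adjusted p = 0.0052), the lowest value of the 45. Ndc80 read 6.60, 6.57, 6.52 and 6.34 at day 4, 5.79 to 6.45 (median 6.01) in Ly6C- and 5.63 to 5.85 (median 5.71) in Ly6C+ MFs. Neighbouring groups overlapped, and its difference between the subsets did not pass with the arrays numbered 4 to 6 (0.21, adjusted p = 0.20). Cenpe, a kinetochore motor, was 0.78 higher in Ly6C- MFs and 1.35 higher at day 4 over Ly6C- MFs, and Cenpf 0.11 (not passing) and 0.98.

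Cenpa (probe set 10520521), the histone H3 variant that marks the centromere, ran opposite to the others at day 2. It read 8.17 to 9.35 (median 8.92) in WT Ly6C- and 9.10 to 9.99 (median 9.65) in WT Ly6C+ arrays, a fall of -0.82 (SE 0.15, adjusted p = 1.5e-05). KO arrays read 8.74, 8.51, 8.73, 8.58 and 8.68 in Ly6C- and 9.56, 9.60, 9.57, 9.42 and 9.69 in Ly6C+ MFs, a fall of -0.92 (SE 0.16, adjusted p = 1.3e-05). Rosiglitazone arrays read 7.78, 8.04 and 8.43 in Ly6C- and 8.93, 9.11 and 8.76 in Ly6C+ MFs, a fall of -0.85 (SE 0.21, adjusted p = 0.0016). Only the non-treated WT subsets overlapped, and their difference was -0.67 with the arrays numbered 1 to 3 and -0.97 with those numbered 4 to 6. Cenpa read 9.35, 9.16, 9.38 and 9.36 in WT day 4 arrays and 9.30, 9.15, 9.5 and 9.49 in WT day 1 arrays, on both days within the range of the WT day 2 Ly6C+ arrays. Relative to Ly6C+ MFs of day 2 the day 4 difference was -0.32 (adjusted p = 0.096), and relative to Ly6C- MFs 0.50 (SE 0.16, adjusted p = 0.018). The former was -0.59 and passed as lower against the arrays numbered 1 to 3, and was -0.05 without passing against those numbered 4 to 6. The day 4 value over Ly6C- MFs did not hold in WT without Ly6C- replicate 4 (0.37, adjusted p = 0.069) or replicate 5 (0.39, adjusted p = 0.063), or against the arrays numbered 1 to 3 (0.08, adjusted p = 0.67). In KO MFs it was 0.62 (adjusted p = 0.0044).

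Taking both WT comparisons gene by gene, 35 genes were higher in Ly6C- than in Ly6C+ MFs and higher again at day 4. A further 9 passed at day 4 only: Pbk, Cdc25c, Cenpf, Birc5, Spc24, Bub1b, Aurka, Cdc20 and Kif23. The shares of all genes with these pairs of calls are not given, so the counts of 35 and 9 have no background beside them. The difference between passing and not passing was not itself tested, and Pbk and Kif23 lay near the threshold on opposite sides of 0.

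Genes of the same cycle that are not among the 45 were read from 3 further lists. As background, 22.2% of all genes were higher and 23% lower in WT Ly6C- than in Ly6C+ MFs. At WT day 4 over Ly6C- MFs the shares were 14.1% and 15.2%. Of 77 other mitosis genes measured (81 listed), 50 were higher and 2 lower in WT Ly6C- than in Ly6C+ MFs (median 0.37), and 52 higher and 3 lower at day 4 than in Ly6C- MFs (median 0.46). Cdca3, a trigger of mitotic entry, and Cdkn3, a phosphatase of cyclin-dependent kinases, had the largest day 4 rises in that list (1.5 and 1.35), and Wee1, the kinase that restrains Cdk1, and Nek6 the largest falls (-0.80 and -0.75). Wee1 was 1.45 higher in Ly6C- than in Ly6C+ MFs. Of 38 DNA replication genes measured (39 listed), 38 were higher in WT Ly6C- than in Ly6C+ MFs (median 0.64, range 0.17 to 1.90), led by Mcm6, of the replicative helicase, at 1.90 (SE 0.11) and Prim1, of the primase, at 1.60 (SE 0.14).

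The replication and mitosis lists parted at day 4. Relative to WT Ly6C- MFs, 5 replication genes were higher and 13 lower (median -0.04, range -0.65 to 0.81), where 45 of 45 mitosis genes were higher (median 1.06). The shares of all genes were 14.1% higher and 15.2% lower in WT, and 13.1% and 11.8% in KO. Tk1 (thymidine kinase, 0.81) and Rrm2 (ribonucleotide reductase, 0.63) rose most, and Mcm2 (-0.65), of the helicase, and Chek1 (-0.43), the S phase checkpoint kinase, fell most. In KO MFs 4 replication genes were higher and 7 lower (median -0.04), or 8 and 3 without KO day 4 replicate 2 (median 0.02), beside 45 mitosis genes higher in both settings. Against the WT day 2 arrays numbered 1 to 3 the replication counts were 9 higher and 11 lower, beside 41 mitosis genes higher. Against those numbered 4 to 6 they were 3 higher and 9 lower, beside 45 mitosis genes higher. Relative to Ly6C+ MFs of day 2, 30 replication genes were higher at WT day 4 and none lower (median 0.71), against 23.8% and 26% of all genes. Of 31 genes of G1 and its control (32 listed), 10 were higher and 5 lower at WT day 4 than in Ly6C- MFs (median 0.06). Mxd4 (1.11), a MAX partner that opposes Myc, and Ccng2 (0.89), cyclin G2, rose most, and Myc (-1.14) and Lin54 (-1.01), a DREAM subunit that binds the CHR, fell most. In the subsets 14 of these were higher and 6 lower (median 0.19).

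**Figure D4:**
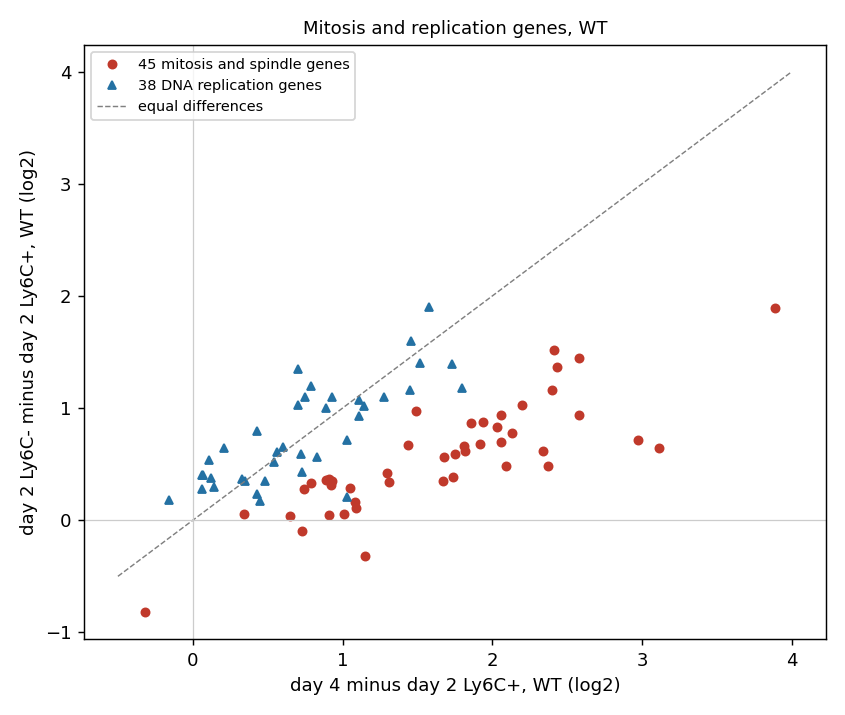
Each point is a gene in WT MFs, with the log2 difference of day 4 minus day 2 Ly6C+ on the x axis and of day 2 Ly6C- minus Ly6C+ on the y axis, for 45 mitosis and spindle genes (red) and 38 DNA replication genes (blue), and a dashed line of equal differences. Both axes share the WT day 2 Ly6C+ arrays; points to the right of the line are higher at day 4 than in day 2 Ly6C- MFs, as all 45 red points are.

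Transcripts of other cells were read beside these values, since dividing muscle precursors and lymphocytes also express the 45 genes. As background, 23.8% of all genes were higher at WT day 4 than in day 2 Ly6C+ MFs, and 14.1% than in Ly6C- MFs. Of 10 myoblast and satellite cell markers, 5 were higher at WT day 4 than in day 2 Ly6C+ MFs and 7 than in Ly6C- MFs, and none lower. Their log2 summed level was 10.02 to 10.14 in KO and 9.98 to 10.19 in WT day 4 arrays, against 9.44 to 9.68 in WT Ly6C- and 9.58 to 9.83 in WT Ly6C+ arrays of day 2. Des rose most over Ly6C+ MFs (1.41, mean 7.39 at day 4 and 5.98 in Ly6C+ MFs), and Myog was 0.70 higher (7.0 and 6.30). Pax7, which marks satellite cells, was 0.27 higher at day 4 than in Ly6C- MFs (adjusted p = 0.008) and differed by 0.06 from Ly6C+ MFs without passing, and Cdh15 was 0.28 higher than in Ly6C- MFs (adjusted p = 0.0065). Myf5 passed in neither (0.16 and 0.08). Of 8 fibroblast markers 5 were higher at WT day 4 than in Ly6C- MFs, Sparc by 1.43 and Dcn by 1.27, and 1, Dcn, than in Ly6C+ MFs. Their summed level was 10.20 to 10.75 at WT day 4, 9.73 to 10.13 in WT Ly6C- and 9.82 to 10.89 in WT Ly6C+ arrays, where those numbered 1 to 3 read 10.41 to 10.89 and those numbered 4 to 6 read 9.82 to 10.18.

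The summed level of 5 B cell markers ran in the same order of groups as the mitosis genes, at 9.54 to 9.74 in WT day 4, 8.81 to 9.15 in WT Ly6C- and 8.56 to 9.0 in WT Ly6C+ arrays, and at 9.31 to 9.72 in KO day 4, 8.93 to 9.30 in KO Ly6C- and 8.67 to 8.95 in KO Ly6C+ arrays. In WT it followed Cd79b, a chain of the B cell receptor complex, which was 0.54 higher in Ly6C- than in Ly6C+ MFs and 0.89 higher at day 4 than in Ly6C- MFs. Ebf1 was 0.43 higher at WT day 4 than in Ly6C- MFs and fell by 0.31 in Ly6C- relative to Ly6C+ MFs, while Cd79a, Ms4a1 and Pax5 were higher in none of these WT comparisons. Of 6 dendritic cell markers 3 were higher at WT day 4 than in Ly6C- MFs, led by Cd209a (1.83) and Clec9a (1.18), with a summed level of 9.57 to 9.76 at day 4, 8.78 to 8.93 in Ly6C- and 9.42 to 9.86 in Ly6C+ arrays. Of 10 T and NK cell markers 4 were higher at WT day 4 than in Ly6C- MFs, and of 10 neutrophil precursor markers 9 were lower at day 4 than in Ly6C+ MFs. Among all genes 14.1% were higher in the former comparison and 26% lower in the latter. Between the WT subsets, Cd79b was the 1 marker of these 6 lists that was higher in Ly6C- MFs, and 3 myoblast, 6 fibroblast, 2 B cell, 3 dendritic cell, 7 T and NK cell and 6 neutrophil precursor markers were lower. In 2 further lists, 2 of 9 neutrophil markers were higher in Ly6C- MFs and 4 lower, and 6 of 7 endothelial markers were lower. Among all genes 22.2% were higher and 23% lower between these subsets. The part of other cells in the subset and day 4 values was not tested.

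From day 1 to day 2, few of the mitosis genes passed in Ly6C+ MFs. Most of the 45 had a group mean below the median of all values, with 10 above it at WT day 1 and 11 at WT day 2. In WT, 1 of 45 was higher and none lower (median 0.09), against 6.51% of all genes higher and 3.17% lower. The gene was Cenpi, a centromere protein, at 0.30 (SE 0.09, adjusted p = 0.029), with 5.04, 5.13, 5.01, 4.80, 5.06 and 4.84 at day 2 and 4.78, 4.65, 4.67 and 4.62 at day 1. The days were separated by the margin between 4.80 and 4.78, and the call was lost without any of day 1 replicates 2, 3 and 4 or day 2 replicates 1, 2 and 5. Mki67 had the largest fall in WT, -0.36, without passing. It passed as lower with the day 2 arrays numbered 1 to 3 (-0.64, adjusted p = 0.015, limma) and with a replicate block (-0.73, adjusted p = 0.0044). With the arrays numbered 1 to 3 Cenpa and Cenpi were higher (0.54 and 0.38), and with those numbered 4 to 6 none of the 45 passed. In KO MFs none passed (median 0.02, range -0.30 to 0.24, lowest adjusted p 0.17, 1 gene at an unadjusted p under 0.05), against 6.06% higher and 2.58% lower.

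The KO was compared with WT in 4 conditions, to ask whether the mitosis genes differed between the genotypes. Lyz2 averaged 9.72 in KO and 12.95 in WT MFs at day 1, and 9.65 and 12.99 at day 4. Pparg deletion and the Cre allele at Lyz2 cannot be told apart there. At day 2 the WT arrays numbered 1 to 3 were low for Lyz2 too, and those numbered 4 to 6 were not. Of 180 differences (45 genes in 4 conditions) none passed and 2 had an unadjusted p under 0.05, Ndc80 at day 1 (0.27) and Kif23 in day 2 Ly6C+ MFs (-0.45, adjusted p = 0.14). All genes together passed in 0.0351% at day 1, 1.88% in day 2 Ly6C+, 0.201% in day 2 Ly6C- and 0.0652% at day 4. The 180 differences ran from -0.45 to 0.31, 178 were within 0.3 of 0, and the widest 95% interval was the difference ± 0.51. The medians were 0.03 at day 1, -0.05 in day 2 Ly6C+, -0.06 in day 2 Ly6C- and -0.07 at day 4. These day 4 values include KO replicate 2, the lowest day 4 array for 45 of 45 genes. The KO day 4 median over day 2 Ly6C+ MFs was 1.62 with that array and 1.87 without it, beside 1.74 in WT. Over Ly6C- MFs it was 0.97 with and 1.23 without it, beside 1.06 in WT. In both comparisons the KO median was below WT with the array and above WT without it. Ccna2 read 9.99, 8.83, 10.15 and 10.36 in KO day 4 arrays, against 9.73, 9.94, 10.01 and 10.15 in WT day 4 arrays, and the groups overlapped. At day 2 Ccna2 read 7.95, 7.71, 7.97, 7.42 and 7.71 in KO and 7.52 to 8.28 (median 7.99) in WT Ly6C- arrays. Plk1 read 9.70, 8.22, 9.76 and 9.84 in KO day 4 arrays and 9.43 to 9.75 in WT day 4 arrays, and Aurkb 9.29, 8.55, 9.34 and 9.39 in KO and 9.14 to 9.40 in WT, the low value in each case being that of KO replicate 2. Without that array none passed at day 4 either. Against the WT day 2 arrays numbered 1 to 3 alone, Cenpa was lower in KO, by -0.34 in Ly6C+ (adjusted p = 0.035) and -0.59 in Ly6C- MFs (adjusted p = 3.6e-04). The difference between genotypes in the subset effect, and in the day 2 and day 4 effects, passed for none of the 45, against 0.01%, 0.01% and 0.0301% of all genes. None of the 45 had an unadjusted p under 0.05 in any of these 3.

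**Figure D5:**
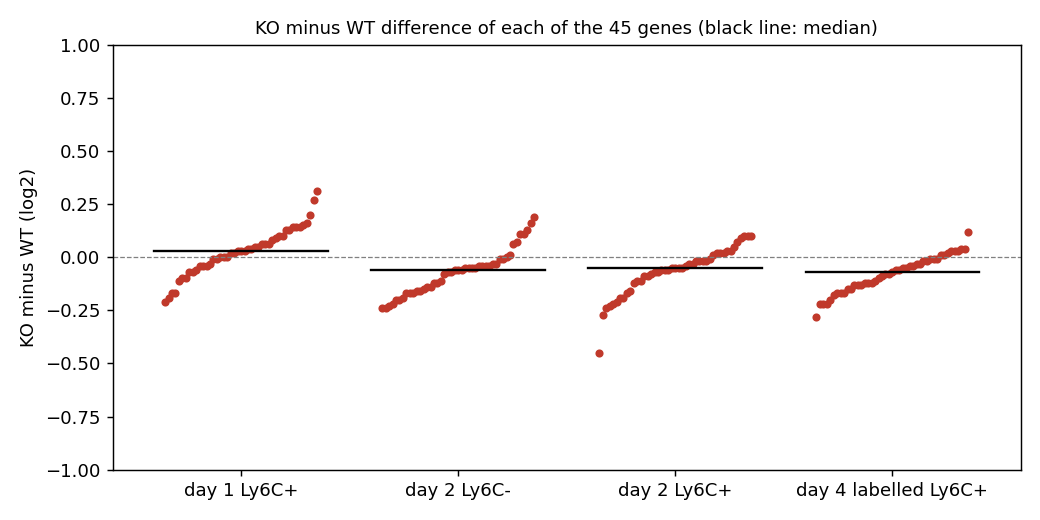
KO minus WT log2 difference (y axis) of each of the 45 genes (points) in 4 conditions (x axis). The 180 values run from -0.45 to 0.31, 178 lie within 0.3 of 0 and none passed the test. The day 4 values include KO day 4 replicate 2.

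With rosiglitazone, 2 of the 45 genes were lower in day 2 Ly6C+ MFs (6 at an unadjusted p under 0.05) and none passed in Ly6C- MFs (1 at an unadjusted p under 0.05, limma). The background was 11.1% of all genes called in Ly6C+ and 0.0351% in Ly6C- MFs. In treated Ly6C+ MFs Cenpa read 8.93, 9.11 and 8.76, against 9.10 to 9.99 (median 9.65) in non-treated Ly6C+ MFs, a difference of -0.70 (SE 0.18, adjusted p = 0.0086). Only the treated value of 9.11 and the non-treated value of 9.10 overlapped. Cenpi read 4.62, 4.70 and 4.68 in treated and 4.80 to 5.13 (median 5.02) in non-treated arrays, a difference of -0.31 (SE 0.10, adjusted p = 0.037) without overlap. Mki67 read 6.83, 6.91 and 7.02 in treated and 6.94 to 8.54 in non-treated arrays (-0.67, adjusted p = 0.073), and Cdk1 6.56, 6.62 and 6.54 in treated and 6.69 to 7.22 in non-treated arrays (-0.45, adjusted p = 0.058). In treated Ly6C- MFs Cenpa read 7.78, 8.04 and 8.43, against 8.17 to 9.35 (median 8.92) without the drug, a difference of -0.74 (SE 0.18, adjusted p = 0.12). The median of the 45 was -0.09 in Ly6C+ and 0 in Ly6C- MFs. Neither call was made when only the 2 Ly6C+ groups set the spread, a setting in which no gene of the array passed, or against the arrays numbered 4 to 6 alone, where Cenpa differed by -0.43 (adjusted p = 0.11). Against the arrays numbered 1 to 3 Cenpa differed by -0.97, and within non-treated Ly6C+ MFs these were 0.54 above the arrays numbered 4 to 6. Lyz2 read 12.86 to 13.19 in the treated arrays. In the non-treated arrays it read 12.64 to 13.02 in those numbered 4 to 6 and 8.67 to 9.29 in those numbered 1 to 3. The treated arrays were thus like the former, and the 2 calls were made against both sets together. Leaving out single arrays gave 0 to 5 calls in Ly6C+ MFs, 0 without treated replicate 3 (Cenpa -0.61, adjusted p = 0.069) and 5 without non-treated replicate 4, and 1 call in Ly6C- MFs without treated replicate 3 or non-treated replicate 4. The difference in drug effect between the subsets passed for none of the 45, against 0.015% of all genes, and 1 gene, Melk, had an unadjusted p under 0.05 (0.34, adjusted p = 0.57).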

How the data were processed

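The deposited table holds 35556 probe sets of 44 one-colour mouse gene arrays in log2 units, computed by the authors with RMA; its software version is not given in the sources used here. Values ran from 1.46 to 13.6 and array medians from 6.64 to 6.77. They were used as deposited. The 21789 probe sets with 1 symbol gave 19938 genes, the highest-mean probe set standing for a gene; 1621 with several symbols and 12146 with none were left out. One mean per group was fitted over all 44 arrays with limma 3.58.1 in R 4.3.3 (lmFit, eBayes), with Benjamini-Hochberg adjustment over all genes. The scripts were tested on simulated data.

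The members and lists were chosen with earlier results of these data known. Members were named by role, 12 of them in every comparison, with the largest rises and falls, every member against the majority and, from other lists, the largest rises and falls. Examples beyond these were chosen after their values were seen.

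Alternatives were array centring, a filter on dim genes, averaged probe sets, the compared groups alone, a trended robust prior, leaving out arrays, replicate blocks and the WT day 2 arrays numbered 1 to 3 or 4 to 6. Same-numbered arrays deviated together in every pair (r above 0.1) only between the rosiglitazone subsets, where 3 pairs had r of 0.13 to 0.44 and the numbers were taken as pairs from the data.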

Additional observations from a re-analysis of the deposited data

Results flagged for a closer look

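Of 104 groups of values checked for a lone array, 9 held one whose gap to the rest was large for the size of its group, and chance gives about 1 in 20. KO day 4 replicate 2 was the low array for Cdk1 (8.54, others 9.55 to 9.73), Plk1 (8.22, others 9.70 to 9.84), Aurkb (8.55, others 9.29 to 9.39) and Bub1 (6.91, others 8.22 to 8.47). Mki67 was 7.41 in WT day 2 Ly6C- replicate 4, where the others ran from 8.27 to 8.68. Cenpa was 9.16 in WT day 4 replicate 2, where the others ran from 9.35 to 9.38. Birc5 was 6.16 in KO day 1 replicate 4, where the others ran from 5.83 to 5.86. The median of the 45 genes was 5.91 in KO day 1 replicate 1 (the others 5.94) and 5.99 in KO day 2 Ly6C+ replicate 3 (others 5.84 to 5.87).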

How the results depend on the processing

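Of 138 counts of mitosis genes recomputed under an alternative, 115 stayed within 1.5 times, and of 498 single-gene values 489 kept direction and call, 9 lost the call and 0 reversed. With arrays left out in turn, 717 of 726 single-gene values kept both and 0 reversed. Where a count moved further, the cause was not tested unless given here. The share of all genes passing is not given for most of these alternatives, the filter on dim genes among them.

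The filter on dim genes left 17 members to test, of which 13 passed between the subsets in each of WT, KO and rosiglitazone-treated MFs, 16 at day 4 over Ly6C+ MFs and 17 over Ly6C- MFs in both genotypes, and 0 between day 2 and day 1 in WT. The filter may have kept members through the groups where they were high. At WT day 4 34 members had a group mean above the median of all values, against 11 in WT day 2 Ly6C+ MFs. Counts after the filter are therefore a description and no further support. For day 2 against day 1 the WT count was 0 with array medians set equal, 0 with the compared groups alone, 3 with the arrays numbered 1 to 3 and 0 with those numbered 4 to 6, and the KO count was 2 with the groups alone and 2 with a replicate block. For KO against WT the count was 1 (Cenpa) in each day 2 subset with the WT arrays numbered 1 to 3. For rosiglitazone in Ly6C+ MFs it was 1 with array medians set equal, 0 with the groups alone, 8 with a replicate block, 5 with the arrays numbered 1 to 3 and 0 with those numbered 4 to 6, and in Ly6C- MFs 1 with a block and 2 with the arrays numbered 1 to 3.

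Leaving out arrays gave 35 to 37 calls between the subsets in WT, 31 to 34 in KO and 27 to 33 under rosiglitazone, 44 to 45 at WT day 4 over Ly6C+ and 44 to 45 over Ly6C- MFs, 43 to 43 and 42 to 45 in KO, 0 to 1 for WT day 2 over day 1, and 0 to 5 and 0 to 1 for rosiglitazone in Ly6C+ and Ly6C- MFs. In the rosiglitazone-treated subsets, taken as pairs, a replicate block gave 37 calls against 33. Elsewhere same-numbered arrays did not qualify as pairs, since r was not above 0.1 in every pair. Between the WT subsets r was 0.01 to 0.60, and 3 of 6 pairs matched best with their own number. Between the KO subsets r was 0.04 to 0.29, and 4 of 5 did. These subsets were tested as unpaired. Averaging both Top2a probe sets left a WT day 4 difference over Ly6C- MFs of 0.33 (adjusted p = 0.078). Precision is limited by the number of arrays.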
